A study of Mus musculus with 24 samples.

Results

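The comparison described here sets high glucose medium (HG) against normal glucose medium (NG) in mouse hypothalamic cells that were given mogroside V, the main sweet triterpene glycoside of monk fruit, at the dose labels 2 and 3. Its members were chosen by sample title: the libraries titled HG2 and HG3 were pooled (HG2-3), as were those titled NG2 and NG3 (NG2-3). There were 5 HG2-3 and 6 NG2-3 libraries, 11 of the 23 distinct RNA-seq libraries in the series. The other libraries were HG and NG at dose label 1 (HG1 and NG1) and HG and NG controls (HGC and NGC), with 3 libraries each. The letters HG and NG were read as the high and normal glucose of the series design, and C as the control without mogroside V. Mogroside V was used at 15, 60 and 160 µM according to that design. Which dose number stands for which of these is not stated, and neither are the glucose concentrations or the treatment times. All 11 libraries of the comparison came from cells of the same label that had received mogroside V, so the contrast is one of medium within treated cells. The labels name the source only as hypothalamic cells, and the design text calls them adult mouse hypothalamus neuronal cells.

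Hypothalamic neurons take part in the control of feeding and glucose balance, and cells in culture adjust transport, sugar use, lipid synthesis and lysosomal activity to the sugar in their medium. Cholesterol synthesis is controlled by SREBP2, a membrane-bound factor that moves to the nucleus when sterols in the endoplasmic reticulum run low and that binds sterol regulatory elements. Lysosome genes share a control through TFEB, TFE3 and MITF, factors that bind an E-box variant called the CLEAR element and that are held in the cytoplasm by the nutrient sensor mTORC1. Txnip, an arrestin that limits glucose uptake, is a standard target of the glucose-sensing factor Mlx and its Mondo partners.

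The files of HG2 replicate 3 and HG3 replicate 2 were identical, so that library (called the shared library below) was used once, and no label says to which of the dose labels it belongs. Gene counts per library were 3272671 to 3915059 in HG2-3 and 3623593 to 7773074 in NG2-3. NG3 replicate 3 stood apart: it lay at -48.9 on the first principal component, against 11 to 19.3 in HG2-3 and -14.8 to -5.68 in the other NG2-3 libraries, had 14.4% of reads outside genes against 18.2 to 19.3% in those, and had the fewest genes with a count (16535). The results below include it unless a value without it is given. No label gives a batch, a plate or a day, so medium and handling cannot be told apart, and replicates are not said to be separate cultures. A p-value here therefore reflects library-to-library spread, part of which may be technical. Counts are of bulk RNA, in which fewer cells of a kind and less RNA per cell cannot be told apart.

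The label of the cells was checked against markers. Of 17 hypothalamic neuropeptides and receptors, 8 had no count in the 11 libraries and 15 had fewer than 10 counts in all, among them Npy, Agrp and Pomc. Of 16 pan-neuronal markers 9 were abundant enough to test. Tubb3, Map2, Eno2, Stmn2 and Uchl1 had 2827, 2197, 1144, 778 and 707 counts in all 11 libraries together. Rbfox3, Snap25, Elavl4 and Dcx had 0 to 5. The summed neuronal markers gave 159 to 176 CPM of gene counts in HG2-3 and 164 to 213 CPM in NG2-3. The 11 fibroblast and pericyte markers gave 7220 to 8190 CPM in HG2-3 and 5970 to 8090 CPM in NG2-3. Col1a1, Col1a2 and Acta2 were abundant among them, whereas Lum and Fap had 5 and 7 counts. The 11 astrocyte and tanycyte markers gave 2850 to 3300 CPM in HG2-3 and 3190 to 3680 CPM in NG2-3. Most of that was Vim, at 2720 to 3170 CPM in HG2-3 and 3050 to 3520 CPM in NG2-3, and Gfap had 5 counts. The markers thus do not show mature hypothalamic neurons, and the libraries are called by their labels only.

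High glucose medium at dose labels 2 and 3 went with higher RNA of cholesterol synthesis, lysosome and proton pump genes, metallothioneins and some secreted proteases, and with lower RNA of mitotic genes, of the immediate early genes Egr1 and Ier2 and of the muscle-type oxidase subunit Cox6a2. Of 12940 genes tested with edgeR's quasi-likelihood test, 836 (6.46%) passed a Benjamini-Hochberg adjusted p of 0.05: 533 rose (4.12%) and 303 fell (2.34%) in HG2-3. Of these, 77 (0.595% of those tested) changed at least 2-fold, 49 upward and 28 downward. Without NG3 replicate 3, 887 of 12894 genes (6.88%) passed, 535 of them higher (4.15%) and 352 lower (2.73%). The values of the 5 HG2-3 and 6 NG2-3 libraries did not overlap in 608 of all genes tested (4.7%), and among the called genes in 302 of the rises (56.7%) and 153 of the falls (50.5%). The split between rises and falls rests on the scaling. TMM composition factors were 0.964 to 0.988 in HG2-3 and 1.014 to 1.074 in NG2-3, and with total counts in their place 336 genes rose and 662 fell. The median log2 fold change over all genes was 0.01 with TMM and -0.07 with total counts.

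Among genes with at least 5 CPM in the higher group, groups that did not overlap and a call with and without NG3 replicate 3, the 12 largest rises included a set of lipid and lysosome genes. Fabp4, a fatty acid carrier best known from adipocytes, had 12.9, 9.08, 9.23, 14.5 and 10.01 CPM in HG2-3, against 0.739, 2.63 and 4.29 CPM (lowest, median and highest) in NG2-3. The lowest HG2-3 library was above the highest NG2-3 library, and the log2 fold change was 2.18 ± 0.31 (SE; adjusted p = 3.87e-06, edgeR). Plin4, a coat protein of lipid droplets, had 13.5, 14.8, 13.1, 15.3 and 16.7 CPM in HG2-3, against 3.28, 4.36 and 5.16 CPM (lowest, median and highest) in NG2-3. The groups again did not overlap, and the log2 fold change was 1.74 ± 0.24 (adjusted p = 1.55e-06, edgeR). Gpnmb, a lysosomal membrane glycoprotein and a target of the MITF and TFE factors, had 42.9, 31.4, 57.3, 39.1 and 33.6 CPM in HG2-3, against 10.3, 12.04 and 21.1 CPM (lowest, median and highest) in NG2-3. Its highest library was the shared one, its groups did not overlap, and the log2 fold change was 1.51 ± 0.17 (adjusted p = 1.64e-08, edgeR).

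Gnpda1, which returns glucosamine 6-phosphate to glycolysis, had 16.8, 9.60, 13.7, 15.3 and 6.67 CPM in HG2-3, against 2.46, 3.24 and 3.93 CPM (lowest, median and highest) in NG2-3. All HG2-3 libraries lay above all NG2-3 libraries, although the HG2-3 values differed among themselves by more than 2-fold (log2 fold change 1.95 ± 0.28, adjusted p = 4.19e-06, edgeR). The other large rises were Dpp7, a lysosomal dipeptidyl peptidase (1.22), Hmox1, the inducible heme oxygenase (1.28), Chac1, which degrades glutathione (1.36), Akr1c18, a progesterone-metabolizing reductase (1.36), Tnfrsf11b, the decoy receptor osteoprotegerin (1.26), Csf1r, the receptor of colony stimulating factor (1.27), and the predicted gene Gm45353 (1.31), as log2 fold changes. Elobl also rose (1.70), but it is a near copy of Elob, and reads of the pair may have been split by the counting, so that its value is uncertain. Csf1r is one of 8 listed markers of microglia and macrophages, which summed to 151 to 171 CPM in HG2-3 and 146 to 219 CPM in NG2-3. Most of that sum was Tmem119, at 133 to 160 CPM in HG2-3 and 136 to 203 CPM in NG2-3. Over the 11 libraries Cx3cr1, Cd68, Ptprc, P2ry12, Aif1 and Itgam had 178, 98, 16, 10, 1 and 0 counts. The 7 listed adipocyte markers, Fabp4 among them, summed to 14.8 to 24.1 CPM in HG2-3 and 8.56 to 13.7 CPM in NG2-3. Of these, Fabp4 itself had 8.86 to 14.3 CPM of gene counts in HG2-3 and 0.772 to 4.36 CPM in NG2-3, while Pparg had 3.97 to 8.82 CPM in HG2-3 and 5.39 to 9.65 CPM in NG2-3. Lpl, Plin1, Adipoq, Cidec and Lep had 59, 15, 3, 0 and 0 counts over the 11 libraries. The part of either cell type in the rises of Csf1r and Fabp4 was not tested.

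Among falls chosen in the same way the largest was that of Cox6a2, a subunit of cytochrome c oxidase in its heart and skeletal muscle form. It had 1.20, 2.34, 2.87, 2.38 and 0.278 CPM in HG2-3, against 15.8, 26.3 and 35.5 CPM (lowest, median and highest) in NG2-3. No library of either group came near the other group, and the log2 fold change was -3.77 ± 0.32 (adjusted p = 2.4e-10, edgeR). Of 13 tested oxidase subunits it was the only one that passed, and the muscle markers Ckm and Myh3 had 0 and 5 counts in the 11 libraries. The 8 muscle markers, Cox6a2 among them, summed to 4.37 to 9.71 CPM in HG2-3 and 21.0 to 39.3 CPM in NG2-3. Most of the NG2-3 sum was Cox6a2 itself, with 0.273 to 2.75 CPM of gene counts in HG2-3 and 16 to 38 CPM in NG2-3. The groups overlapped in Acta1, with 1.47 to 3.58 CPM in HG2-3 and 0.264 to 5.57 CPM in NG2-3. They also overlapped in Des, with 0.26 to 3.24 CPM in HG2-3 and 0.772 to 1.77 CPM in NG2-3. The sum therefore does not show a fall of muscle markers other than Cox6a2.

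Further large falls were Card10, a scaffold of NF-kappaB signalling (-1.35), Naprt, which makes NAD from nicotinic acid (-1.35), Plekha4, a phosphoinositide-binding protein (-1.16), Nsl1, a kinetochore subunit (-1.16), Olfml2a, an extracellular matrix protein (-1.14), Has1, a hyaluronan synthase (-1.06), Gstp1, a glutathione transferase with a near copy in the mouse genome (-1.07), and the predicted gene Gm37274 (-1.19). Cbx7, a Polycomb subunit, had 0.900, 2.34, 0, 1.85 and 1.95 CPM in HG2-3, against 2.95, 4.55 and 10.8 CPM (lowest, median and highest) in NG2-3 (log2 fold change -1.86 ± 0.47, adjusted p = 0.0102, edgeR). The highest of these was NG3 replicate 3, and without it the log2 fold change was -1.55 (adjusted p = 0.0342, edgeR). Jup, the junction protein plakoglobin, fell by 1.12 on the log2 scale (adjusted p = 0.0209, edgeR), and by 0.80 without NG3 replicate 3, which held the highest value. Its call was lost without HG2 replicate 1 (adjusted p = 0.0535, edgeR) or without the shared library (0.0509). Pdlim4, a LIM-domain protein of actin filaments, fell by 1.07 on the log2 scale (adjusted p = 0.028, edgeR), and its call was lost without NG2 replicate 2, HG2 replicate 1, HG2 replicate 2 or HG3 replicate 1 (adjusted p = 0.0581 to 0.0917, edgeR).

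**Figure D1:**
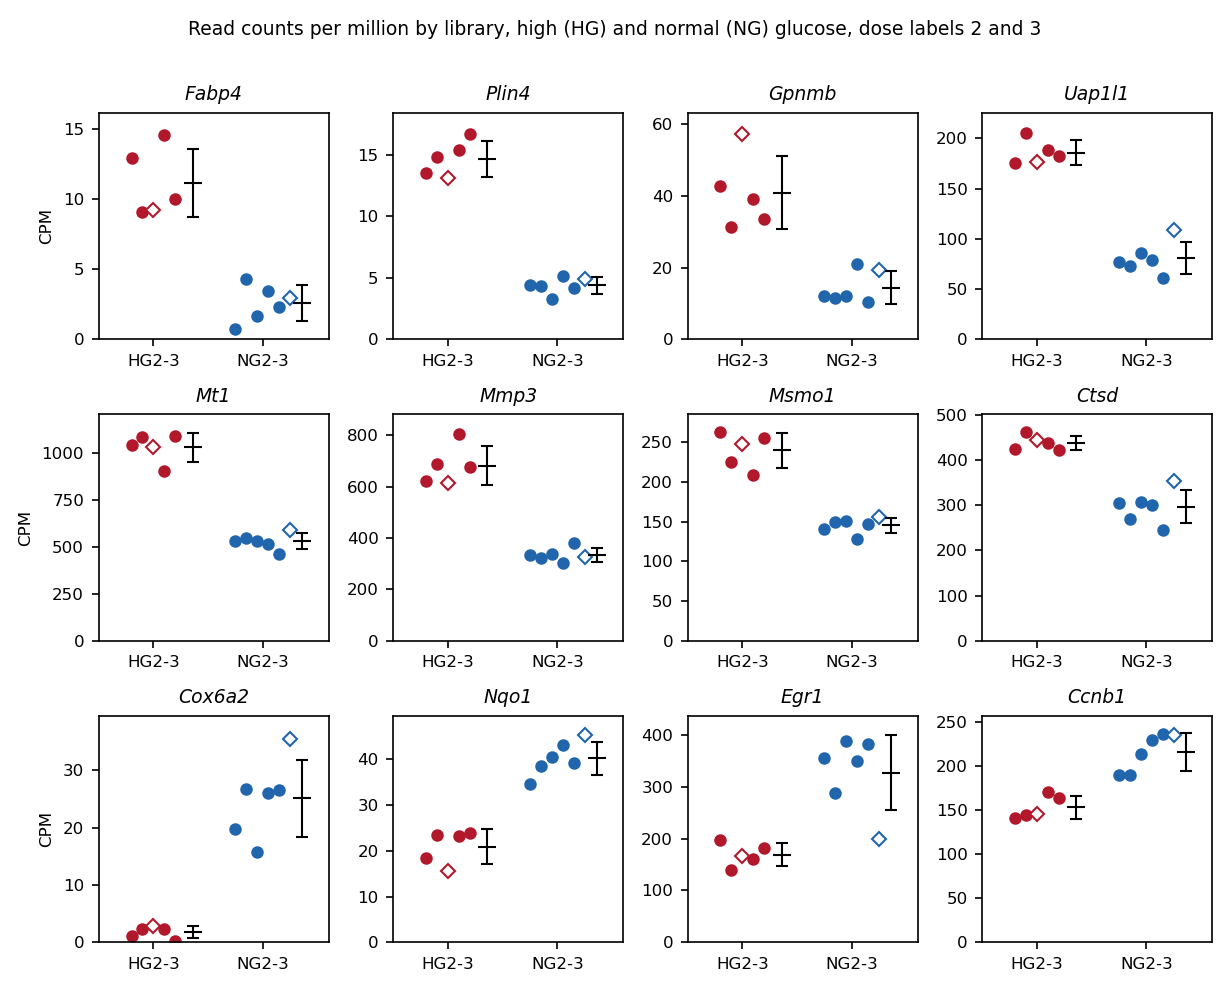
CPM (y axis, on TMM-adjusted library sizes) of 12 genes in the 5 HG2-3 libraries (red) and the 6 NG2-3 libraries (blue); open diamonds mark the shared library and NG3 replicate 3, and black bars the mean ± SD. The 12 genes were picked from the called genes described in the text, so that their groups do not overlap is not a result. Over all tested genes the groups did not overlap in 608 of 12940 (4.7%). For Egr1 NG3 replicate 3 (199.5 CPM) lies just above the highest HG2-3 library (197 CPM).

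Lipid genes were not raised as one block. Of 25 tested genes of cholesterol synthesis and uptake, 15 rose and none fell, against 6.46% of all genes called, and all 25 log2 fold changes were positive, with a median of 0.54 beside 0.01 over all genes. The count was 17 without NG3 replicate 3 and 13 with total counts. Msmo1, which removes methyl groups from sterol intermediates, had 263, 225, 248, 209 and 255 CPM in HG2-3, against 129, 148 and 156 CPM (lowest, median and highest) in NG2-3. Every HG2-3 library exceeded every NG2-3 library (log2 fold change 0.72 ± 0.08, adjusted p = 5.53e-09, edgeR).

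Hmgcs1, the synthase at the entry of the mevalonate pathway, had 232, 231, 233, 177 and 227 CPM in HG2-3, against 118, 151 and 158 CPM (lowest, median and highest) in NG2-3. HG3 replicate 1 was the low one among the HG2-3 libraries but still lay above all of NG2-3 (log2 fold change 0.61 ± 0.09, adjusted p = 1.54e-05, edgeR). Acat2 (cytosolic thiolase), Cyp51 (lanosterol demethylase) and Sqle (squalene epoxidase) rose too, with log2 fold changes of 0.75, 0.57 and 0.38. Of 15 tested genes of fatty acid synthesis and desaturation, none was called, with a median of 0.08. Without NG3 replicate 3 there was 1 rise, and there was 1 fall without HG3 replicate 1, without NG2 replicate 2 or with total counts. Scd2, a desaturase, averaged 362 ± 30.3 CPM in HG2-3 and 323 ± 32.4 CPM in NG2-3 (SD, n = 5 and 6), and its difference of 0.16 did not pass (adjusted p = 0.227, edgeR).

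Fatty acid carriers and droplet coat proteins gave 4 rises and no fall among 9 tested members. Beside Fabp4 and Plin4, Fabp5, another fatty acid carrier, rose by 0.53 on the log2 scale (adjusted p = 0.0107, edgeR), with overlapping groups. Of the proteins that handle cholesterol in lysosomes, Npc1 and Npc2, which pass it out of the organelle, rose by 0.68 and 0.37 on the log2 scale (adjusted p = 0.00263 and 0.000834, edgeR). In that list of 8 tested genes, 3 rose and none fell, while 4 rose and 1 fell without NG3 replicate 3 and 3 rose and 1 fell with total counts.

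Lysosome genes formed the other large group of rises. Of 30 tested hydrolases and membrane proteins 13 rose and none fell, with a median log2 fold change of 0.33. Ctsd, the aspartic protease cathepsin D, had 424, 462, 443, 437 and 421 CPM in HG2-3, against 245, 303 and 354 CPM (lowest, median and highest) in NG2-3. The groups did not overlap even though NG3 replicate 3 was the highest NG2-3 library (log2 fold change 0.56 ± 0.08, adjusted p = 6.19e-06, edgeR). Grn, the precursor of lysosomal granulins, had 396, 381, 348, 336 and 369 CPM in HG2-3, against 173, 239 and 274 CPM (lowest, median and highest) in NG2-3. All HG2-3 libraries were higher (log2 fold change 0.65 ± 0.09, adjusted p = 6.16e-07, edgeR). Gla, the alpha-galactosidase lost in Fabry disease in humans, averaged 15.4 ± 4.10 CPM in HG2-3 and 7.85 ± 1.12 CPM in NG2-3 (log2 fold change 0.98 ± 0.20, adjusted p = 0.00127, edgeR). The tetraspanin Cd63 and the peptidase Tpp1 rose by 0.58 and 0.50.

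The vacuolar proton pump, the ATPase that acidifies lysosomes, was raised in most of its subunits. All 16 tested subunits and accessory proteins had positive log2 fold changes with a median of 0.40, and 11 rose. Atp6ap2, an accessory subunit, had 227, 173, 193, 175 and 236 CPM in HG2-3, against 108, 114 and 149 CPM (lowest, median and highest) in NG2-3. NG3 replicate 3 was the highest NG2-3 library there, yet below all HG2-3 libraries (log2 fold change 0.75 ± 0.10, adjusted p = 4.49e-07, edgeR). Of the catalytic sector Atp6v1a, Atp6v1b2 and Atp6v1d rose by 0.35, 0.53 and 0.57 on the log2 scale, and of the membrane sector Atp6v0b and Atp6v0d1 by 0.49 and 0.60.

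Of 9 tested genes around the MITF and TFE factors 4 rose and none fell, namely the target Gpnmb, the GTPase Rragc (0.63) and the folliculin partners Fnip1 (0.47) and Fnip2 (0.73). The RNAs of the factors themselves did not pass (Tfeb -0.29, Tfe3 -0.20 and Mitf 0.21; adjusted p = 0.526, 0.292 and 0.491, edgeR). Autophagy genes gave 1 rise among 15 tested members, Gabarap (0.29, adjusted p = 0.0377, edgeR), and that call was absent in the fits without NG2 replicate 2, NG2 replicate 3, NG3 replicate 1, NG3 replicate 2 or any one HG2-3 library, where 0 of the list rose. Without NG2 replicate 2 and with total counts 1 of the list fell. Counts of called lysosome genes stayed between 11 and 14, and those of pump genes between 9 and 11, when each of the 11 libraries was left out in turn, and with total counts 10 and 8 rose and none fell.

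**Figure D2:**
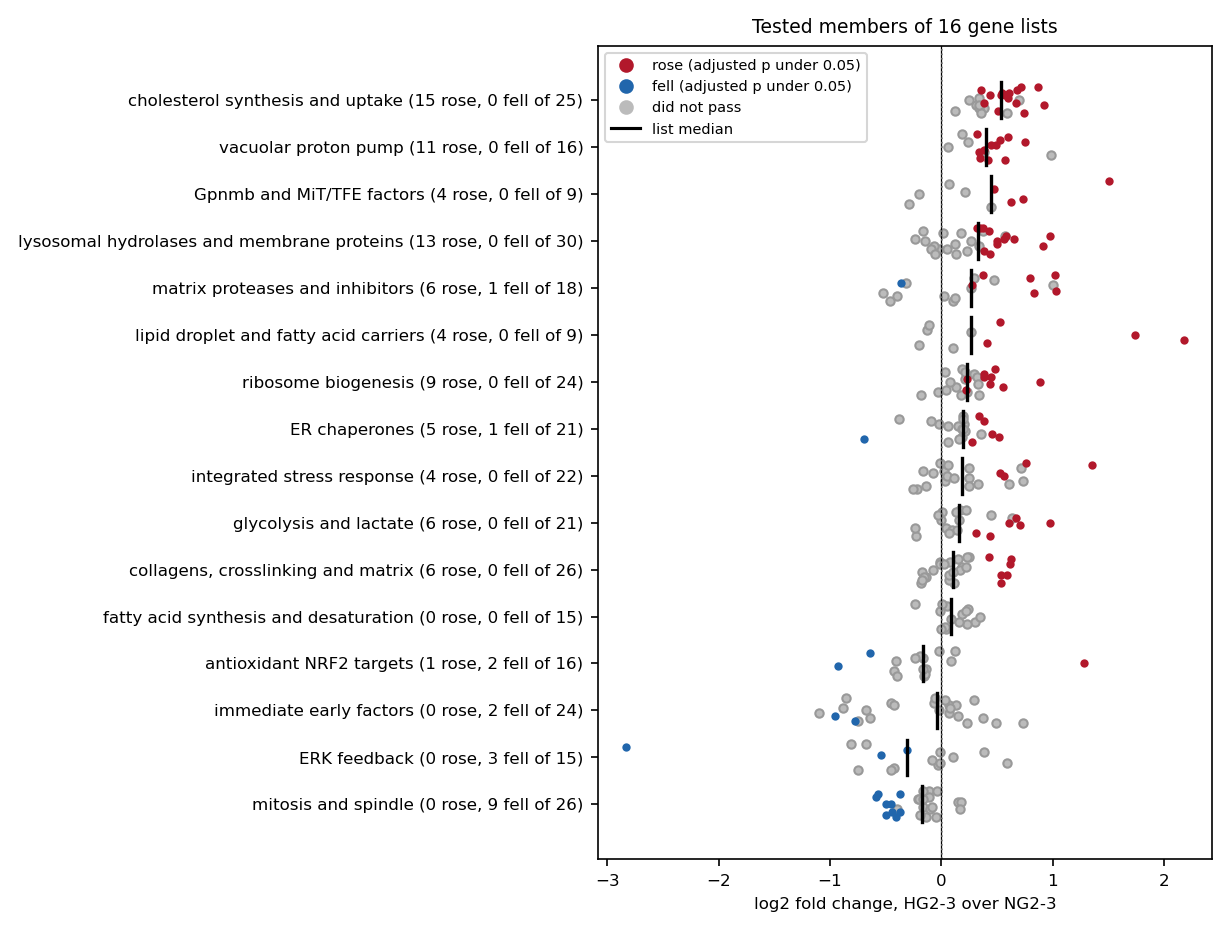
Log2 fold change of HG2-3 over NG2-3 (x axis) for the tested members of 16 gene lists (rows); red points rose, blue points fell, grey points did not pass an adjusted p of 0.05, and black lines mark list medians. The cholesterol and proton pump lists lie wholly to the right of 0, and the mitosis list holds only falls among its called members (0 rose, 9 fell of 26).

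Promoter sequences were searched for the letters that the factors named above are known to bind. RefSeq promoter windows on GRCm38.p6, from 250 bases before to 50 bases after an annotated start site, were found for 9090 of the 12764 tested gene symbols. The following letters were searched on both strands in any window of a gene: TCACGTGA, the core of the CLEAR element; CACGTG, the general E-box, which every TCACGTGA contains; and TCACCCCAC, a sterol regulatory element, whose reverse is GTGGGGTGA. The windows below belong to called members of the cholesterol, lysosome and pump lists that hold the first or the last of these, and capitals mark the match.
Ctsd (chr7:142387778-142388077, minus strand): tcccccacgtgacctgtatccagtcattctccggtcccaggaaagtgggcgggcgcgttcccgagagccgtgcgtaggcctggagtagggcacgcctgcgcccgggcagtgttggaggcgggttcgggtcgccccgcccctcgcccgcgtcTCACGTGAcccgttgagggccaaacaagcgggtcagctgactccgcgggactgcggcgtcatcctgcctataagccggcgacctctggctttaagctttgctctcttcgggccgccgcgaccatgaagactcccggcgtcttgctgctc
Gla (chrX:134600956-134601255, minus strand): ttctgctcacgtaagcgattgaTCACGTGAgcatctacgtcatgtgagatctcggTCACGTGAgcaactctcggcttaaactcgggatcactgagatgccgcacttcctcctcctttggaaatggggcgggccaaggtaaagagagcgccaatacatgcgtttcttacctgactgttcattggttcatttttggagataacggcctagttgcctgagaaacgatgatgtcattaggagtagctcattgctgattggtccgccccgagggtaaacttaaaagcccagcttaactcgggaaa
Atp6v0d1 (chr8:105566015-105566314, minus strand): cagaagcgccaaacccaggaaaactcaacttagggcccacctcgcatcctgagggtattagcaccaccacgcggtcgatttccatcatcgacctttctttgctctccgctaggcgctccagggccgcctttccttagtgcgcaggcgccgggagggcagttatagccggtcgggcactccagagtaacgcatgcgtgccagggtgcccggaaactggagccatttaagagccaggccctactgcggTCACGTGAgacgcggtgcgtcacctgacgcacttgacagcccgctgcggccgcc
Atp6v1a (chr16:44139210-44139509, minus strand): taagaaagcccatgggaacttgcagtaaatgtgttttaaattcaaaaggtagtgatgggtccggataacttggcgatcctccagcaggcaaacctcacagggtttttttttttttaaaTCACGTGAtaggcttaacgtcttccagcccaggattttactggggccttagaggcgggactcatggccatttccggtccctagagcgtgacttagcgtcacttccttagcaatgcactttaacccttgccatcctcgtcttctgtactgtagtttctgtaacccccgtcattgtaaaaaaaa
Hmgcs1 (chr13:119690101-119690400, plus strand): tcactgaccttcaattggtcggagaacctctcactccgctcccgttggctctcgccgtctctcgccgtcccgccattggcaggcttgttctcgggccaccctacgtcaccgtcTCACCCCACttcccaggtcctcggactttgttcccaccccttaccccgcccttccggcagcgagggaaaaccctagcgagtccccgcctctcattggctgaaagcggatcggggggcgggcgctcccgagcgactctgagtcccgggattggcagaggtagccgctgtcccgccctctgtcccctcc
The match began 99 bases upstream of the start site in Ctsd, 4 bases upstream in Atp6v0d1, 132 bases upstream in Atp6v1a, and 228 and 195 bases upstream in Gla, which holds 2 matches. In Hmgcs1 the sterol element began 137 bases upstream. The CLEAR letters were found in 4 of 25 lysosome genes with a window (16%), in 3 of 11 pump genes (27.3%) and in 1 of 22 mitosis genes (4.55%). They were found in 204 of 9090 tested genes (2.24%) and in 304 of all 27025 genes of the RefSeq table (1.12%). The E-box was found in 8.09% and the sterol element in 0.614% of that table. Lysosome genes are known to share the CLEAR element, so its shares in the lysosome and pump lists are not a result of these data.

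Over all called genes the CLEAR letters were present in 30 of 386 risen genes with a window (7.77%), in 0 of 241 fallen genes and in 204 of 9090 tested genes (2.24%). The E-box was present in 99 of 386 risen genes (25.6%), 14 of 241 fallen genes (5.81%) and 1073 of 9090 tested genes (11.8%). Read the other way, 30 of the 204 tested genes with CLEAR letters rose (14.7%) and none fell. Of all 9090 tested genes with a window 386 rose (4.25%) and 241 fell. The median log2 fold change of the 204 was 0.14, beside -0.01 for the 7964 genes with none of the 3 motifs. The 204 include members of the lysosome and pump lists, such as Ctsd and Atp6v1a. In HGC against NGC, 19 of these 204 genes rose and none fell, beside 189 rises and 38 falls among all 9090. In HG1 against NG1, 16 of the 204 rose and none fell, beside 156 rises and 36 falls among all 9090. Those comparisons share no library with HG2-3 against NG2-3. The sterol element was rare, in 5 of 386 risen genes (1.30%), 1 of 241 fallen genes (0.415%) and 60 of 9090 tested genes (0.660%), and of the 17 cholesterol genes with a window only Hmgcs1 held it. The shares are descriptions, since base composition, expression level and the number of start sites were not matched between the groups, and a match is not evidence of binding. Risen genes with CLEAR letters outside the lists included Mfsd1, a lysosomal membrane transporter (0.62, adjusted p = 1.23e-07, edgeR), and Dpp7 described above.

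**Figure D3:**
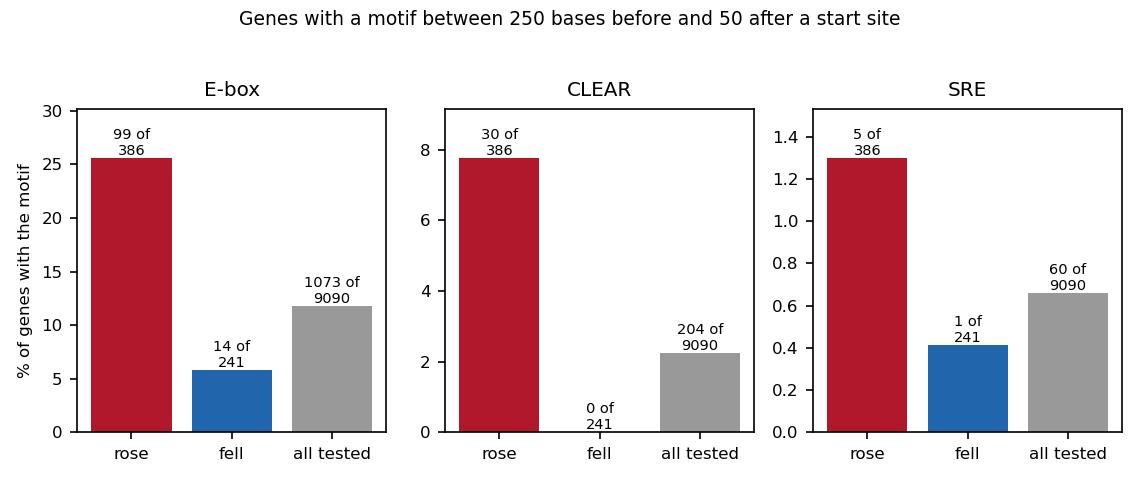
Share of genes (y axis, percent) with the E-box, CLEAR or sterol regulatory element (SRE) letters in a promoter window, for genes that rose, genes that fell and all tested genes; the counts above the bars give genes with a match and genes with a window. The CLEAR letters occur in 30 of 386 risen genes and in 0 of 241 fallen genes.

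Sugar handling changed in a few genes. Of 21 tested genes of glycolysis and lactate export 6 rose and none fell, with a median of 0.16. Pfkl, the liver-type phosphofructokinase, had 70.8, 75.5, 68.1, 62.4 and 72.01 CPM in HG2-3, against 30.3, 47.1 and 50.5 CPM (lowest, median and highest) in NG2-3. The ranges of the groups were separate (log2 fold change 0.67 ± 0.11, adjusted p = 6.52e-05, edgeR). Aldoa (aldolase), Hk2 (the inducible hexokinase) and Slc16a3 (the lactate exporter MCT4) rose by 0.44, 0.61 and 0.98 on the log2 scale. The number of called genes in the list was 4 when the shared library, HG3 replicate 3 or NG3 replicate 1 was left out, and 4 with total counts. None of 8 tested genes of the pentose phosphate pathway was called, and 1 fell without NG3 replicate 2 or with total counts.

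Txnip had 96.6, 91.6, 72.3, 86.5 and 109 CPM in HG2-3, against 115, 150.2 and 195 CPM (lowest, median and highest) in NG2-3. It was thus lower in every HG2-3 library than in any NG2-3 library, with a log2 fold change of -0.74 ± 0.16 (adjusted p = 0.00613, edgeR; -0.70 and 0.0222 without NG3 replicate 3). The related arrestin Arrdc4, which shares its control by glucose, had 7.80, 17.1, 4.46, 6.08 and 8.62 CPM in HG2-3, against 6.56, 8.75 and 11.1 CPM (lowest, median and highest) in NG2-3. Its groups overlapped, and the difference of 0.04 ± 0.27 did not pass (adjusted p = 0.957, edgeR) and changed sign in several alternatives. Of 7 tested arrestins and carbohydrate-response factors, Txnip fell and Arrdc3 rose (0.75, adjusted p = 0.0272, edgeR). Arrdc3 was not called without NG2 replicate 2, NG2 replicate 3, NG3 replicate 1, NG3 replicate 2, HG2 replicate 1, HG2 replicate 2 or the shared library (adjusted p = 0.0565 to 0.0913, edgeR). Of 17 genes of glucose sensing and of insulin and leptin signalling followed by name, 12 were abundant enough to test, whereas the sweet taste receptor subunits Tas1r2 and Tas1r3, for example, were not. Among the 12, Hk2 rose and Txnip fell. The glucose transporter Slc2a1, with 37.01 ± 4.22 CPM in HG2-3 and 35.4 ± 4.93 CPM in NG2-3, was not called (log2 fold change 0.07, adjusted p = 0.82, edgeR). Irs2, an insulin receptor substrate, averaged 85.2 ± 15.7 CPM in HG2-3 and 60.5 ± 16.2 CPM in NG2-3 and missed the threshold (log2 fold change 0.50 ± 0.16, adjusted p = 0.0584, edgeR), as did the neuropeptide receptor Npy1r at low counts, with a log2 fold change of 1.14 ± 0.44 (adjusted p = 0.117, edgeR). Leaving out NG2 replicate 2 took Npy1r to an adjusted p of 0.0421, and leaving out NG2 replicate 3, NG3 replicate 1, HG2 replicate 1 or HG3 replicate 3 took Irs2 to 0.00946 to 0.0468 (edgeR). The 8 further genes that were not called, which include Slc2a1, Arrdc4, Insr and Igf1r, had log2 fold changes of -0.24 to 0.26 (lowest adjusted p = 0.376, edgeR).

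In amino sugar metabolism, Uap1l1, a homolog of the pyrophosphorylase that makes UDP-N-acetylglucosamine, had the lowest adjusted p of all genes together with Mt1. It had 176, 206, 177, 189 and 182 CPM in HG2-3, against 61.3, 77.7 and 109 CPM (lowest, median and highest) in NG2-3. NG3 replicate 3 was the highest of NG2-3 and still well below HG2-3 (log2 fold change 1.20 ± 0.10, adjusted p = 3.94e-12, edgeR). Uap1 itself was not called (0.12, adjusted p = 0.630, edgeR), and Uap1l1 and Gnpda1 were the 2 rises among 9 tested genes of the hexosamine pathway.

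Metallothioneins bind zinc and copper. Mt1 had 1042, 1084, 1029.5, 903 and 1092 CPM in HG2-3, against 461, 529.8 and 592 CPM (lowest, median and highest) in NG2-3. No values of the groups came near each other (log2 fold change 0.96 ± 0.08, adjusted p = 3.94e-12, edgeR). Mt2, its neighbour in the same cluster, rose by 0.76, and the zinc importer Slc39a6 by 0.41, the 3 rises among 11 tested genes of metallothionein and zinc transport, whose median was -0.14. None fell, and 1 did without NG3 replicate 3, HG3 replicate 1 or the shared library and with total counts.

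Antioxidant genes of the NRF2 pathway did not move together. Hmox1 rose, with 55.8, 46.98, 44.9, 37.3 and 33.9 CPM in HG2-3, against 11.9, 17.7 and 27.3 CPM (lowest, median and highest) in NG2-3. In contrast the quinone reductase Nqo1 had 18.3, 23.4, 15.6, 23.3 and 23.9 CPM in HG2-3, against 34.6, 39.7 and 45.1 CPM (lowest, median and highest) in NG2-3. The groups did not overlap in either gene, and the log2 fold changes were 1.28 ± 0.20 for Hmox1 and -0.93 ± 0.14 for Nqo1 (adjusted p = 8.05e-05 and 1.42e-05, edgeR). The glutathione transferase Gstm1 fell too (-0.64), and the other 13 of 16 tested genes did not pass. There were 3 falls without NG3 replicate 3 and 5 with total counts, beside 1 rise in both.

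Stress responses were raised in part. Of 22 tested genes of the integrated stress response 4 rose and none fell (18.2%, beside 6.46% of all genes called), with a median of 0.18. Atf4, its central transcription factor, had 499, 386, 445, 402 and 433 CPM in HG2-3, against 184, 264 and 327 CPM (lowest, median and highest) in NG2-3. The groups did not overlap (log2 fold change 0.76 ± 0.13, adjusted p = 0.000551, edgeR). Chac1 rose as given above, whereas the amino acid synthesis targets Asns, Psat1 and Phgdh, with log2 fold changes of 0.03, -0.01 and -0.17, did not pass (adjusted p = 0.913, 0.970 and 0.640, edgeR). Without the shared library 2 of the list rose. The endoplasmic reticulum chaperone Hspa5 had 2088, 1895, 2366, 2153 and 2139 CPM in HG2-3, against 1489, 1662 and 1723 CPM (lowest, median and highest) in NG2-3. Its groups did not overlap (log2 fold change 0.39 ± 0.07, adjusted p = 0.000369, edgeR), and in its list of 21 tested chaperones and degradation factors 5 rose and 1 fell. That list depends on the libraries and the scaling: 2 rose without the shared library or without NG2 replicate 1, 3 rose without HG2 replicate 1, HG2 replicate 2, HG3 replicate 1, HG3 replicate 3 or NG3 replicate 2, and 1 rose and 2 fell with total counts. Cytosolic and mitochondrial heat shock genes were not raised as a list. Of 16 tested members 1 rose and 1 fell, 9 log2 fold changes were positive and 7 negative, and the median was 0.05. With total counts 0 of these 16 rose and 2 fell.

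Secreted proteins of matrix turnover included some of the clearest rises. Mmp3, the protease stromelysin, had 623, 687, 614, 807 and 678 CPM in HG2-3, against 302, 330.4 and 380.2 CPM (lowest, median and highest) in NG2-3. Every HG2-3 library exceeded every NG2-3 library (log2 fold change 1.03 ± 0.09, adjusted p = 3.12e-11, edgeR). Mmp13, a collagenase, rose by 0.80 on the log2 scale. Among 18 tested proteases and inhibitors 6 rose and 1 fell. Without NG2 replicate 3 that became 3 and 0, and with total counts 3 rose and 4 fell. The fall was not called without NG2 replicates 1, 2 or 3, HG2 replicates 1 or 2, HG3 replicate 3 or the shared library, and 2 fell without NG3 replicate 3.

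Of 26 tested collagens, crosslinking enzymes and matrix proteins 6 rose and none fell, with a median of 0.11, and with total counts 6 rose and 1 fell. Lox, the lysyl oxidase that crosslinks collagen, had 1454, 1455, 1447, 1227 and 1367 CPM in HG2-3, against 765, 937 and 993 CPM (lowest, median and highest) in NG2-3. HG2-3 and NG2-3 libraries did not overlap (log2 fold change 0.63 ± 0.08, adjusted p = 6.46e-08, edgeR). Col12a1, Col11a1 and Postn (periostin) rose by 0.54, 0.62 and 0.54, whereas the abundant Col1a2 and Col3a1 did not pass (0.18 and -0.13; adjusted p = 0.561 and 0.363, edgeR). The fibroblast and pericyte markers given above overlapped between the groups in their summed level, of which Col1a1 and Col1a2 made the larger part. Of 9 tested markers in that list 2 were called as rises, Acta2 (0.33, adjusted p = 0.0133, edgeR) and Tagln (0.69, adjusted p = 0.022, edgeR). Acta2 was not called without NG3 replicate 2, HG2 replicate 2 or HG3 replicate 3 (adjusted p = 0.0516 to 0.0843, edgeR), and Tagln not without NG2 replicate 1, NG3 replicate 2, NG3 replicate 3, HG2 replicate 1, HG2 replicate 2 or HG3 replicate 1 (0.0566 to 0.0772). Their part in the rises of matrix genes was not tested. Among secreted signals Bmp4 (0.98), Tgfb2 (0.61) and the chemokine Cxcl12 (0.40) rose, as log2 fold changes, but signal lists were mostly not called. Of 18 tested genes of TGF-beta signalling 2 rose and none fell (11.1%, beside 6.46% of all genes called), with a median of 0.11. With total counts 2 of them rose and 2 fell. Of 20 tested inflammatory mediators 2 rose and 1 fell (15%), with a median of 0.06, and with total counts 1 rose and 2 fell.

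A few growth-signal genes were lower. Egr1, an immediate early transcription factor induced by ERK signalling, had 197, 139, 166, 161 and 181 CPM in HG2-3, against 199.5, 352 and 387 CPM (lowest, median and highest) in NG2-3. The lowest NG2-3 value was NG3 replicate 3, just above the highest HG2-3 library, and the log2 fold change was -0.95 ± 0.17 (adjusted p = 0.00113, edgeR), or -1.07 without that library (adjusted p = 2.79e-05, edgeR). Ier2, another immediate early gene, had 21.6, 33.7, 31.2, 28.6 and 30.03 CPM in HG2-3, against 43.9, 50.4 and 55.97 CPM (lowest, median and highest) in NG2-3. The groups did not overlap (log2 fold change -0.77 ± 0.15, adjusted p = 0.000615, edgeR). These were the 2 falls among 24 tested immediate early factors (8.33%, beside 6.46% of all genes called), of which none rose. The list as a whole was not lower: 11 log2 fold changes were positive and 13 negative, with a median of -0.04. In it 4 genes fell without NG2 replicate 2, and 6 without NG3 replicate 3 or with total counts. Dusp6, a phosphatase that acts back on ERK, fell by 0.54 on the log2 scale (adjusted p = 0.0107, edgeR), and of 15 tested genes of ERK feedback 3 fell and none rose, with 1 fall without HG2 replicate 2 or the shared library. Plk2, a kinase induced by growth factors and by p53, fell by 0.74 (adjusted p = 0.000435, edgeR). It was listed with the p53 targets, of which 2 of 12 tested fell and none rose. That list as a whole was not lower: 7 log2 fold changes were positive and 5 negative, with a median of 0.15. The YAP target list was mixed: the caveolar protein Cavin2, Crim1 and Ankrd1 rose by 0.64, 0.46 and 0.73, and Ccn1 fell by 0.99 (adjusted p = 0.0225, edgeR; 0.0524 without the shared library), with 10 of 14 tested members not called.

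Mitotic genes were lower. Of 26 tested genes of mitosis and the spindle 9 fell and none rose, 23 of the 26 log2 fold changes were negative, and the median was -0.18. Without NG3 replicate 3, 12 fell, and with total counts 11. Ccnb1, the cyclin of mitotic entry, had 141, 144, 146, 171 and 164 CPM in HG2-3, against 190.0, 222 and 237 CPM (lowest, median and highest) in NG2-3. Every library of HG2-3 lay on the same side of NG2-3 (log2 fold change -0.49 ± 0.09, adjusted p = 0.00022, edgeR). Kif2c, a kinesin that depolymerizes microtubules, had 47.7, 48.02, 45.5, 43.6 and 49.5 CPM in HG2-3, against 62.8, 69.2 and 77.8 CPM (lowest, median and highest) in NG2-3. All HG2-3 libraries were lower (log2 fold change -0.57 ± 0.10, adjusted p = 0.000258, edgeR). Cdk1 and Ccnb2 fell by 0.40 and 0.50 on the log2 scale, whereas the proliferation marker Mki67 (-0.19) and Top2a (-0.04) did not pass (adjusted p = 0.484 and 0.834, edgeR). Of 28 tested genes of replication licensing and nucleotide supply, the helicase subunit Mcm6 alone fell (-0.35, adjusted p = 0.00487, edgeR), and 2 fell without NG3 replicates 1, 2 or 3 or without HG3 replicate 3, and 3 with total counts.

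Ribosome biogenesis genes, which build rRNA in the nucleolus, were higher. Of 24 tested members 9 rose and none fell, 22 were positive, and the median log2 fold change was 0.23. Nop56, a core protein of the snoRNPs that methylate rRNA, had 98.95, 97.1, 114, 92.8 and 101 CPM in HG2-3, against 54.8, 68.7 and 84.9 CPM (lowest, median and highest) in NG2-3. The groups did not overlap (log2 fold change 0.55 ± 0.11, adjusted p = 0.000723, edgeR). Dkc1 (the pseudouridine synthase dyskerin), Wdr43 and Gnl3 (nucleostemin) rose by 0.44, 0.39 and 0.49. With total counts 7 rose, and 5 without the shared library or without HG3 replicate 3.

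In the controls and at dose label 1, the same fit gave the medium contrast in libraries that HG2-3 and NG2-3 do not include. HGC against NGC gave 328 called genes (2.53%), with 267 rises (2.06%) and 61 falls (0.471%). HG1 against NG1 gave 255 (1.97%), with 206 rises (1.59%) and 49 falls (0.379%). Each of these had 3 libraries per group. NG3 replicate 3 enters these counts through the spread and the filter that all groups share: in the fit without it HGC against NGC gave 449 (3.48%), with 341 rises (2.64%) and 108 falls (0.838%), and HG1 against NG1 gave 403 (3.13%), with 284 rises (2.2%) and 119 falls (0.923%). Of the 533 genes that rose at dose labels 2 and 3, 430 (80.7%) had the same sign in controls and 475 (89.1%) at dose label 1, beside 56.6% and 58.8% of all genes with a positive log2 fold change. Of the 303 that fell, 227 (74.9%) and 259 (85.5%) had the same sign, beside 58.5% and 61.3% of all genes with a negative one. Genes that rose in controls overlapped these by 148, which is 27.8% of the 533 and 55.4% of the 267, and 18 falls were shared, 5.94% of the 303 and 29.5% of the 61. The median over the 533 rises was 0.32 in controls, 0.35 at dose label 1 and 0.50 at dose labels 2 and 3, and over the 303 falls -0.17, -0.26 and -0.49. The values at dose labels 2 and 3 chose these genes, so the larger size there is not a result.

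For single genes the 3 contrasts can be set side by side. Uap1l1 had log2 fold changes of 1.45 in controls, 1.14 at dose label 1 and 1.20 at dose labels 2 and 3, and Mt1 had 1.26, 0.97 and 0.96. For Cox6a2 they were -3.91, -2.54 and -3.77, and for Ctsd 0.58, 0.41 and 0.56. All 4 genes were called in each contrast, as were the named rises Fabp4, Plin4, Elobl, Gpnmb and Dpp7. Of the named falls, Cox6a2 alone was called in controls or at dose label 1. In the same order Naprt had 0.12, -0.52 and -1.35, Gstp1 had 0.01, 0.22 and -1.07, and Csf1r had 0.18, 0.79 and 1.27. In the test of a difference from controls given below, these 3 did not pass (adjusted p = 0.293, 0.223 and 0.478, edgeR). The cholesterol list gave 15, 11 and 15 rises of 25 in the same order, with medians of 0.70, 0.61 and 0.54, and the proton pump list 10, 7 and 11 rises of 16. Ribosome biogenesis gave 0, 1 and 9 rises of 24, with medians of -0.04, 0.13 and 0.23, and mitosis 1, 0 and 9 falls of 26, with medians of -0.21, -0.22 and -0.18.

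**Figure D4:**
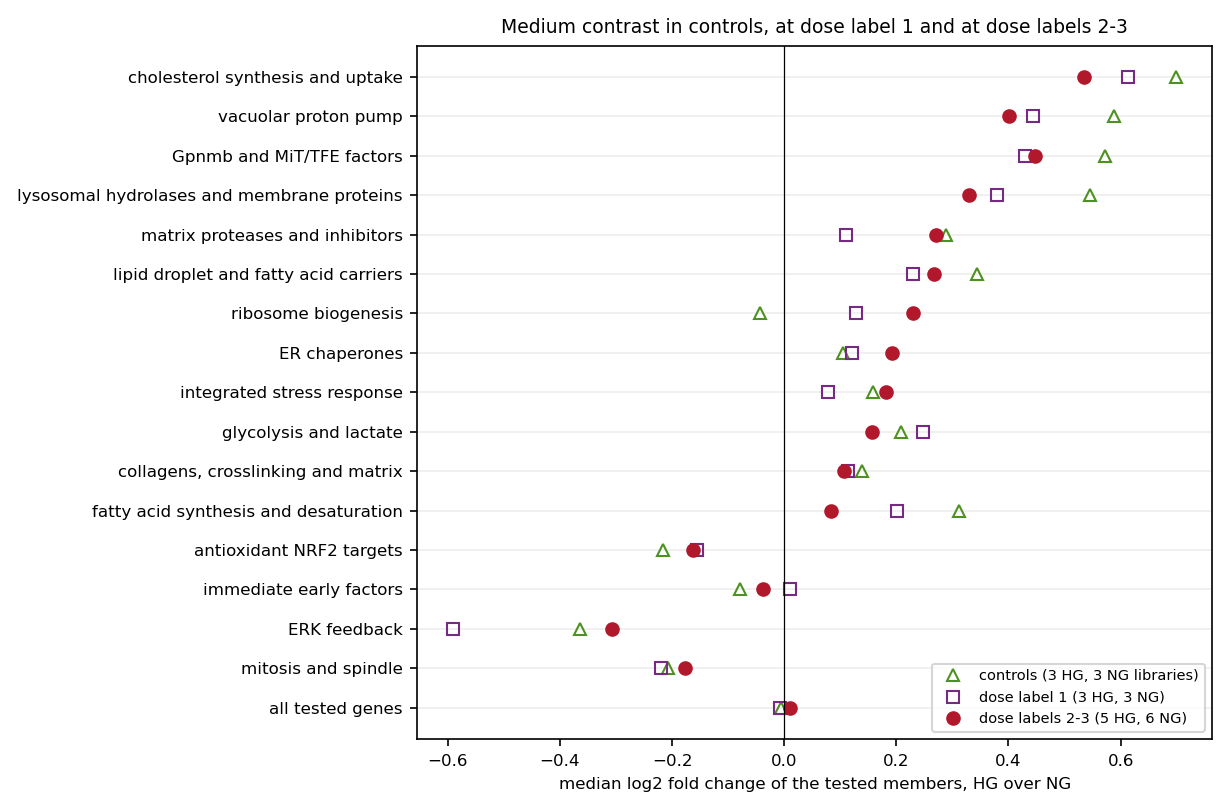
Median log2 fold change of HG over NG (x axis) over the tested members of 16 lists and over all tested genes (rows), in controls (triangles), at dose label 1 (squares) and at dose labels 2 and 3 (circles). The cholesterol list has positive medians in all 3 contrasts (0.70, 0.61 and 0.54), while that of ribosome biogenesis is -0.04 in controls and 0.23 at dose labels 2 and 3.

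A difference between these contrasts was tested as an interaction. Against the controls 3 of 12940 genes (0.0232%) passed, 1 with a positive difference (0.00773%) and 2 with a negative one (0.0155%): Celf4, an RNA-binding protein, Itm2c, a membrane protein of the BRI family, and Lxn, a carboxypeptidase inhibitor. At an unadjusted p of 0.05, 1233 genes passed, and DESeq2 called 69. Celf4 had log2 fold changes of 0.25 at dose labels 2 and 3 and -0.61 in controls, a difference of 0.85 ± 0.15 (adjusted p = 0.0134, edgeR). It averaged 129 ± 8.97 CPM in HG2-3 and 109 ± 11.1 CPM in NG2-3, against 105, 83.2 and 105 CPM in HGC and 150.2, 148 and 148 CPM in NGC. For Itm2c the contrasts were -0.29 and 0.47, with opposite signs and a difference of -0.76 ± 0.14 (adjusted p = 0.0218, edgeR). For Lxn they were 0.07 and 0.83, a difference of -0.76 ± 0.15 (adjusted p = 0.0268, edgeR). The number of calls rests on single libraries: it was 0 without NGC replicate 1 or NGC replicate 2, 1 without HGC replicate 2 or HG3 replicate 1, 6 without HGC replicate 1, 9 without NG3 replicate 1, 10 without NG3 replicate 3, 20 without NG2 replicate 2 and 22 without NGC replicate 3. No member of the lists described above passed. For Nop56 and Dkc1 the differences from controls were 0.77 ± 0.18 and 0.72 ± 0.15 (adjusted p = 0.0889 and 0.0566, edgeR).

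Against dose label 1 no gene passed the interaction test (0%), with 997 genes at an unadjusted p of 0.05 and 12 called by DESeq2. Of the 836 genes, 609 were called at dose labels 2 and 3 and in neither of the other contrasts, but none of the 609 passed either interaction test, so they are not shown to differ from the controls or from dose label 1. The median standard error of the interaction was 0.28 on the log2 scale against controls, beside 0.17 for HG2-3 against NG2-3.

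The dose labels 2 and 3 were also taken apart, in a fit of the 8 labelled groups without the shared library. HG2 against NG2 gave 101 called genes of 13281 (0.76%), with 81 rises (0.61%) and 20 falls (0.151%). HG3 against NG3 gave 122 (0.919%), with 90 rises (0.678%) and 32 falls (0.241%), and with the shared library placed in HG2 or in HG3 these became 193 and 325. Fabp4 had log2 fold changes of 2.41 in HG2 against NG2 and 2.07 in HG3 against NG3 (adjusted p = 0.0052 and 0.0141, edgeR). No gene passed for HG3 against HG2 (0%; 477 at an unadjusted p of 0.05), for NG3 against NG2 (0%; 811) or for the difference of the medium contrasts between the dose labels (0%; 409). With 2 libraries in HG2 and in HG3 the median standard error of that difference was 0.37 on the log2 scale. A difference must exceed its standard error by a wide margin to pass, so differences well above that size could also have been missed. The dose labels are thus not shown to be alike.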

How the data were processed

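Polyadenylated RNA of mouse hypothalamic cells was sequenced. Per the labels' protocols, RNA was isolated with a column kit and DNase, and the deposited files hold raw counts per Ensembl gene that the authors made; per the submitters' processing notes FastQC 0.11.9, STAR 2.7.5c, HTSeq 1.99.2 and GRCm39 were used, and DESeq2 is listed with the number 3.16. No source used here gives the strand setting. The 5 HTSeq summary lines were dropped, of which reads in no gene made 14.4 to 20.2% in the 11 libraries. Of 56941 gene IDs, 51948 matched a symbol in the reference table of GRCm38.

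Genes were filtered with filterByExpr (12940 kept) and tested with edgeR 4.0.16 (R 4.3.3): TMM scaling, quasi-likelihood test, 23 distinct libraries in 6 groups (17 residual degrees of freedom), Benjamini-Hochberg adjustment at 0.05 over all genes. Alternatives used DESeq2 1.42.0 and limma 3.58.1 voom. CPM are on TMM-adjusted library sizes, except marker sums. HG2 and NG2 were pooled with HG3 and NG3 by title. The fit was tested on simulated data in which 200 genes were changed. It recovered 52.2% of 1.5-fold, 80.6% of 2-fold and 89.4% of 3-fold changes, with 5 false calls among 153. A gene that did not pass may therefore still have changed.

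The members, the gene lists and the rules for named genes were chosen with earlier results of these data known. Genes named were the 12 largest rises and the 12 largest falls with at least 5 CPM in the higher group, no overlap and a call with and without NG3 replicate 3; in each list the called members with the lowest p, 4 at most; a set of 17 glucose and sweet taste genes; and genes that passed an interaction test. Other genes named, such as Gla, Atp6v0d1 and Atp6v1a, Mfsd1 and Sqle, and uncalled members given for contrast, were chosen after their values were seen. Some genes that the rule names are not reported here.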

Additional observations from a re-analysis of the deposited data

Results flagged for a closer look

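In a check of single libraries against the rest of their group, a library was set apart where its gap to the nearest other library exceeded Dixon's critical share of the group's range, a gap that chance gives in about 1 in 20 groups. Of 258 sets of gene values looked at, 15 held such a library, in 5 of them NG3 replicate 3.

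NG3 replicate 3 was high for Cbx7 (10.8 CPM, the other NG2-3 libraries at 2.95 to 4.91), Naprt (17.5 CPM), Atp6ap2 (149 CPM) and Timp1 (459 CPM), and low for Rora (22.7 CPM). It also had the lowest share of reads outside genes (14.4%). NG3 replicate 1 was high for Has1 (15.96 CPM) and low for Cyp51 (87.9 CPM) and Sqle (64.3 CPM), and NG2 replicate 2 was low for Atp6v0b (107 CPM). In HG2-3, HG3 replicate 1 was low for Hmgcs1 (177.5 CPM), HG3 replicate 3 was high for Aldoa (367 CPM) and Ankrd1 (201 CPM), HG2 replicate 1 was high for Ccn1 (156 CPM) and Grb14 (19.2 CPM), and the shared library was high for Mt2 (399 CPM). NG2 replicate 1 had 7773074 gene counts, above the other NG2-3 libraries.

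The medium contrast at dose labels 2 and 3 differed from that in controls, by an interaction test (edgeR), for Celf4 (0.85 on the log2 scale), Itm2c (-0.76) and Lxn (-0.76).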

How the results depend on the processing

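The 836 calls became 1013 with DESeq2, 895 with voom and 559 to 887 when each of the 11 libraries was left out in turn, and 389 genes were called in all 11 of those fits. Of the 24 named rises and falls, all 12 rises and 9 falls were called in each of 20 alternatives, with Cbx7, Jup and Pdlim4 as the exceptions. These 24 were chosen by groups that did not overlap and by a call without NG3 replicate 3, itself among the alternatives. Their calls were thus fixed in part by the choice. Of 122 called genes followed through the alternatives, 87 were called in all and 35 were lost in at least 1. A fit with a replicate block and without the shared library called 541 genes (342 rose and 199 fell), where leaving out that library alone gave 559, and Cbx7 had an adjusted p of 0.0537 (edgeR). Over 12 pairs of same-numbered libraries the correlation of deviations from the group means was -0.097 to 0.082. Pairs of different numbers were not compared, so a pairing by replicate number is neither shown nor excluded. Scaling by total counts was chosen after seeing the data and gave 998 calls. For the interaction with controls (3 calls), DESeq2 gave 69, no filter 66, voom 16, total counts 16, the libraries of the contrast alone 1, the block without the shared library 1, the fit of 8 groups without that library 0 (2 on leaving out that library alone), and leaving out single libraries 0 to 22. For that with dose label 1 (0 calls), DESeq2 gave 12, no filter 42, the libraries of the contrast alone 1 and leaving out single libraries 0 to 10. HG2 against NG2 gave 193 with the shared library in HG2 and 165 without NG3 replicate 3, and HG3 against NG3 gave 325 with the shared library in HG3. Uncalled genes near 0 changed sign: Arrdc4 was at -0.045 with voom, at -0.039 with total counts and at -0.36 to 0.19 when single libraries were left out, and with total counts Lxn was at -0.0075 and Slc2a1 at -0.0071. The cause of these changes was not tested. Gene counts of 3272671 to 7773074 per library limit what can be seen in low genes.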
